A study of Homo sapiens with 12 samples.

Results

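A set of 10 genes that mark or drive epithelial-mesenchymal transition (EMT) were followed in SW1736, an anaplastic thyroid cancer cell line, with and without a supplied thyroid hormone receptor beta and with and without its ligand T3. The set holds 10 of the 56832 gene symbols counted: the transcription factors SNAI1, SNAI2, ZEB1, ZEB2, TWIST1 and TWIST2, the epithelial surface proteins CDH1 and EPCAM, and the mesenchymal proteins CDH2 and VIM. They were taken by symbol, by a rule that uses no measured value, though the list was chosen with earlier results of these data known. The series compared 4 groups of 3 RNA-seq libraries: cells stably carrying the empty pCDH-EV vector with the NaOH vehicle (EV vehicle) or with 10 nM T3 (EV T3), and cells stably carrying pCDH-TRB with vehicle (TRB vehicle) or with 10 nM T3 (TRB T3). All cells were first kept for 24 h in medium without phenol red, with serum stripped of hormones by charcoal, and then treated for 24 h. EV cells keep the line's own receptors, so EV T3 is not a group without hormone receptors. The labels do not say whether each vector line is 1 clone or a pool, or whether the 3 libraries of a group came from separate cultures. The p-values therefore measure only the spread between these libraries, which may be technical.

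In EMT, epithelial cells loosen their junctions and take on features of migrating mesenchymal cells. CDH1 encodes E-cadherin, the adhesion protein of epithelial junctions, and EPCAM a surface adhesion protein of epithelia, while VIM (vimentin) and CDH2 (N-cadherin) are a filament protein and a cadherin of mesenchymal cells. SNAI, ZEB and TWIST proteins are the classical inducers, and the SNAI and ZEB factors repress CDH1 through E-box motifs in its promoter. Anaplastic thyroid cancer is an undifferentiated tumour in which loss of E-cadherin and gain of vimentin are commonly described.

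Gene counts totalled 3819306 to 13086717 per library. The supplied gene checked the labels: THRB stood at 12.3 to 18.3 counts per 1000000 (CPM, scaled here by edgeR's TMM effective library sizes) over the 6 EV libraries and at 79.8 to 322 over the 6 TRB libraries. TRB T3 replicate 2 stood apart: its genes deviated from the other replicates of its group along their GC content (Spearman correlation -0.886 across genes, which are not independent replicates), so that GC-poor genes read higher in it. EV T3 replicate 2 deviated from its own group in a similar direction (Pearson correlation 0.728 across genes with the deviations of TRB T3 replicate 2). It was kept in both fits. The biological coefficient of variation was 0.329 with all 12 libraries and 0.131 without TRB T3 replicate 2. Counts of members called are therefore given from all 12 libraries and from the 11 without TRB T3 replicate 2. Some values of single genes and of the related lists are given from the 12 libraries only. Both fits used edgeR's quasi-likelihood test and Benjamini-Hochberg adjustment over all 14431 or 14825 genes tested. A gene is said to have risen or fallen at an adjusted p under 0.05. Of the thyroid follicular markers TSHR and FOXE1 had 0 counts in every library, TG at most 5 counts in any, and PAX8 0.72 to 6.98 CPM. Fibroblast markers other than COL1A1 (6 of 7) and all 5 endothelial markers had at most 3 counts in any library. These were bulk libraries, in which fewer cells of a type and less RNA per cell cannot be told apart.

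The cells carried high epithelial and almost no mesenchymal transcript of this set, unlike the loss of E-cadherin and gain of vimentin described for the labelled tumour type. Whether the cells match the labelled line was not tested. EPCAM and CDH1 were abundant in all 12 libraries, SNAI1, ZEB1 and VIM were scarce, and SNAI2, ZEB2, TWIST1, TWIST2 and CDH2 had 0 counts in every library. Such a zero was common: 46.5% of all symbols, 26420 in number, had no count in any library. A count of 0 allows up to 3 counts, which was 0.225 to 0.759 CPM in a single library and 0.0278 CPM over the 12 together, so a level under this limit was not detectable. These limits and the intervals given for ratios cover counting error only.

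Levels of different genes were compared per kilobase of exon (GENCODE 29, GRCh38). EPCAM (chr2:47345158-47387601, plus strand, 2519 exonic bases) had a median of 182 CPM per kb over the 12 libraries, CDH1 (chr16:68737225-68835548, plus strand, 6177 exonic bases) 25.6, SNAI1 (chr20:49982999-49988886, plus strand, 1686 exonic bases) 0.822, VIM (chr10:17228259-17237593, plus strand, 5158 exonic bases) 0.158 and ZEB1 (chr10:31318495-31529814, plus strand, 8650 exonic bases) 0.0669. EPCAM was above CDH1 and CDH1 far above the other genes in every library. CDH1 exceeded VIM per kb by 74.4 to 868 times in the 11 libraries where VIM had a count. SNAI1 was above ZEB1 in every library but TRB T3 replicate 2. The lowest neighbours in this order overlapped: VIM was above ZEB1 in 8 libraries, and ZEB1 above VIM in EV T3 replicate 1 and in all 3 TRB T3 libraries.

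**Figure D1:**
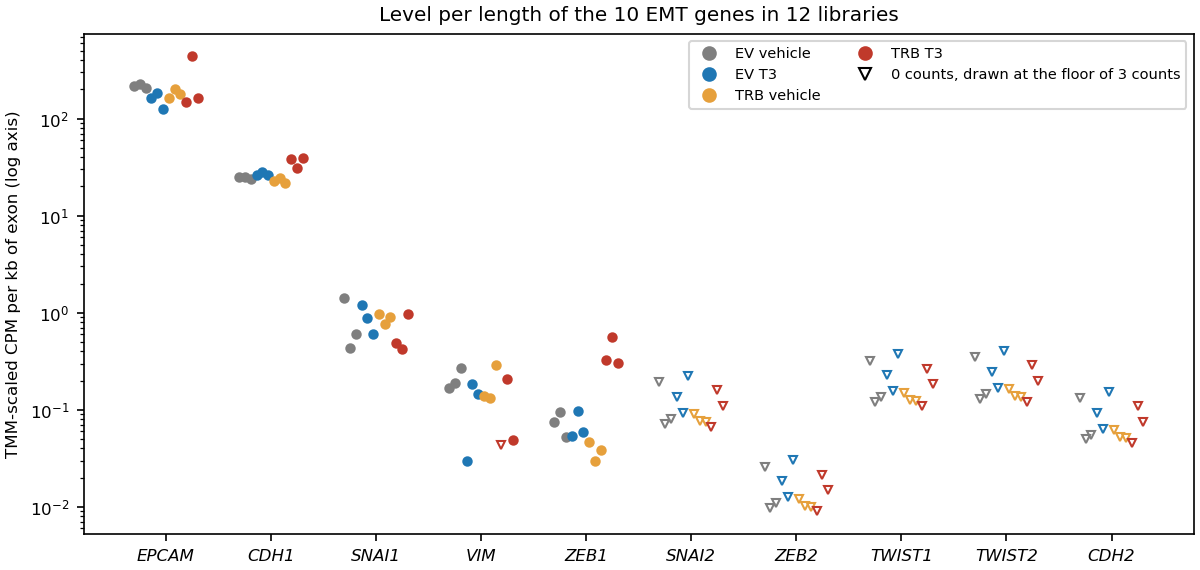
Level of each of the 10 genes in each of the 12 libraries, as TMM-scaled CPM per kb of exon on a log axis, coloured by group; open triangles are libraries with 0 counts, drawn at the floor of 3 counts. EPCAM and CDH1 lie well above SNAI1, VIM and ZEB1, and the 5 genes on the right have triangles only.

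In the edgeR fits of 12 and 11 libraries, T3 in cells with the supplied receptor was the comparison with the most members called, while DESeq2 called 2 members there, 2 between TRB and EV cells with T3 and 2 for the interaction. ZEB1, an E-box-binding repressor and EMT inducer, rose about 9.8-fold from a very low level, and CDH1, one of the genes it is known to repress, rose about 1.58-fold in the same libraries. EPCAM and SNAI1 did not pass the test. VIM was at 0 to 6 counts with T3, was not tested with 12 libraries, and fell with the 11. With 12 libraries 2 of the 4 members tested were called, both higher, where 14.7% of all genes tested were called (8.54% higher and 6.2% lower). With 11 libraries 3 of 5 were called, 2 higher and 1 lower, where 33.3% of all genes were called.

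ZEB1 stood at 0.407, 0.258 and 0.336 CPM in the TRB vehicle libraries and at 2.85, 4.86 and 2.62 CPM in the TRB T3 libraries. These were 4, 3 and 4 counts against 38, 27 and 21. All 3 libraries with T3 were above all 9 other libraries, the highest of which was EV T3 replicate 2 at 0.845 CPM. ZEB1 passed the filter on low counts only through the TRB T3 group, so that a gene tested this way had to be high there. Its calls, here and in the 2 other comparisons that hold TRB T3, therefore add no weight to the counts of members called. The log2 change was 3.29 (SE 0.378, adjusted p = 0.00023) with 12 libraries and 3.06 (SE 0.347, adjusted p = 2.3e-05) with 11. Pooled over libraries, the ratio of TRB T3 to TRB vehicle was 9.70 (95% interval 5.16 to 20.2, from 86 against 11 counts), and 8.39 (4.36 to 17.7, from 59 against 11) without replicate 2. Replicate 2 was the highest of the 3, 0.83 on the log2 scale above the mean of the other replicates, and ZEB1 is GC-poor, with 38.5% GC in its exons.

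ZEB1-AS1 is a neighbouring antisense gene on the minus strand (chr10:31206278-31320447) that overlaps the start of ZEB1. Whether the counting used strand is not given in the sources used here, so reads from the overlap cannot be assigned to either gene with certainty. ZEB1-AS1 stood at 6.2, 9.48 and 8.56 CPM in TRB vehicle and at 7.65, 13.9 and 7.49 CPM in TRB T3. Its groups overlapped, and its log2 change was 0.24 (SE 0.26, adjusted p = 0.537) with 12 libraries and -0.05 (SE 0.18, adjusted p = 0.859) with 11.

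ZEB1 is known as a target of the miR-200 family, epithelial miRNAs that in turn are repressed by ZEB factors. The family is shown because its seeds, bases 2 to 8 in capitals, fall into 2 groups (RefSeq, GRCh38.p14). The first seed group holds 3 miRNAs:
hsa-miR-200b-3p: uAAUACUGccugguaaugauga
hsa-miR-200c-3p: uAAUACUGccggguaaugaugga
hsa-miR-429: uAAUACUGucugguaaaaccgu
The second seed group holds 2:
hsa-miR-200a-3p: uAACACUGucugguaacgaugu
hsa-miR-141-3p: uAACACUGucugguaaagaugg
The 3′ UTR of the ZEB1 transcript used here (GENCODE 29, 2549 bases) held 6 matches to the first seed (CAGTATT) and 3 to the second (CAGTGTT). The first 3 of these 9 matches, with the match in capitals, read 5′ to 3′ on the plus strand of chromosome 10 (GRCh38):
chr10:31527619-31527640: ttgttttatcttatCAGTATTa
chr10:31527713-31527734: tgctaaatccgcttCAGTATTt
chr10:31528032-31528053: aaaatcatcagaatCAGTGTTt
The 3′ UTR of ZEB2 (5370 bases), the paralog with 0 counts in every library, held 5 and 4 such matches. The hairpin symbols of the family were also counted, but such counts do not measure the mature miRNAs. MIR200A had 1 to 23 counts and MIR429 2 to 24 counts per library, and neither was called in any comparison. Values of MIR200B, MIR200C and MIR141 are not given here, so this is no result for the family. These symbols were looked at after the values of ZEB1 were known.

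The stretch upstream of ZEB1 is shown because ZEB1 had the largest fitted change of the 4 members tested for T3 in TRB cells with 12 libraries. The 250 bases before the most upstream RefSeq start (chr10:31318167-31318416, plus strand, GRCh38.p14) lie within the span of ZEB1-AS1:
ZEB1 upstream: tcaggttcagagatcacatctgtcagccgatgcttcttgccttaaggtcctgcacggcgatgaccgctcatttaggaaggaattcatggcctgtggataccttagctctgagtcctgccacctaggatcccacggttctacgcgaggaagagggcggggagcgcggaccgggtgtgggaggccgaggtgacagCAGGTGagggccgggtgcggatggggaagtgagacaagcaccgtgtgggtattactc
The capitals mark the 1 match to the E-box CACCTG, here as its reverse complement. The half-site AGGTCA, which nuclear receptors such as TR bind, had no match on either strand in any of the 7 ZEB1 windows of the table, and the E-box had matches in 2 of them. Among 35116 windows of the same length for all genes, 12.1% held AGGTCA and 17.5% held CACCTG on either strand. The windows of ZEB2, TWIST2, CDH2 and VIM, the other members with an entry, held neither.

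CDH1 stood at 139, 149 and 135 CPM in TRB vehicle and at 236, 189.8 and 242 CPM in TRB T3. All 3 T3 libraries were above all 9 others, of which EV T3 replicate 2 was the highest at 173 CPM, and TRB T3 replicate 2 was the lowest of the 3. The log2 change was 0.66 (SE 0.141, adjusted p = 0.0101) with 12 libraries and 0.81 (SE 0.0945, adjusted p = 2.9e-05) with 11. It did not pass with 12 libraries when TRB vehicle replicate 3 was left out (adjusted p = 0.0608), without a count filter (adjusted p = 0.13) or with the 2 compared groups fitted alone (adjusted p = 0.168).

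EPCAM stood at 412, 505 and 455 CPM in TRB vehicle and at 369.7, 1100.4 and 414 CPM in TRB T3. The high value was TRB T3 replicate 2, and of the other 2 libraries with T3, 1 lay below the vehicle group and 1 just above its lowest library. The fitted change took its sign from that library: it was 0.46 (SE 0.357, adjusted p = 0.397) with 12 libraries and -0.18 (SE 0.154, adjusted p = 0.422) with 11. Per kb, EPCAM exceeded CDH1 by 7.25 to 8.29 times in TRB vehicle, by 3.84 and 4.20 times in TRB T3 replicates 1 and 3, and by 14.2 times in replicate 2.

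VIM had 7, 8 and 18 counts in TRB vehicle and 0, 6 and 2 counts in TRB T3, or 0.711, 0.689 and 1.51 CPM against 0, 1.08 and 0.25 CPM. TRB T3 replicate 2 lay inside the vehicle range and the other 2 below it. With 12 libraries VIM fell under the count filter and was not tested. With 11 it passed the filter only through 2 vehicle libraries, EV vehicle replicate 3 and TRB vehicle replicate 3, so that a gene tested this way had to be high without T3, and its call adds no weight to the count of members called. With 11 libraries its log2 change was -3.17 (SE 0.911, adjusted p = 0.0173), and without any filter it was -3.17 (adjusted p = 0.00058) on the 11 and -1.56 (adjusted p = 0.308) on the 12. When any other single library was left out and VIM passed the filter, it was not called (adjusted p = 0.267 to 0.513). The pooled ratio of TRB T3 to TRB vehicle was 0.301 (95% interval 0.120 to 0.664, from 8 against 33 counts) with replicate 2 and 0.0948 (0.0110 to 0.371, from 2 against 33) without it. The fall thus concerns 33 counts in one group and 2 in the other.

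SNAI1, a zinc finger repressor of CDH1, had 16, 15 and 18 counts in TRB vehicle and 11, 4 and 13 in TRB T3, or 1.63, 1.29 and 1.51 CPM against 0.826, 0.72 and 1.62. The groups overlapped through TRB T3 replicate 3. Its log2 change was -0.47 (SE 0.446, adjusted p = 0.477) with 12 libraries and -0.31 (SE 0.448, adjusted p = 0.649) with 11.

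**Figure D2:**
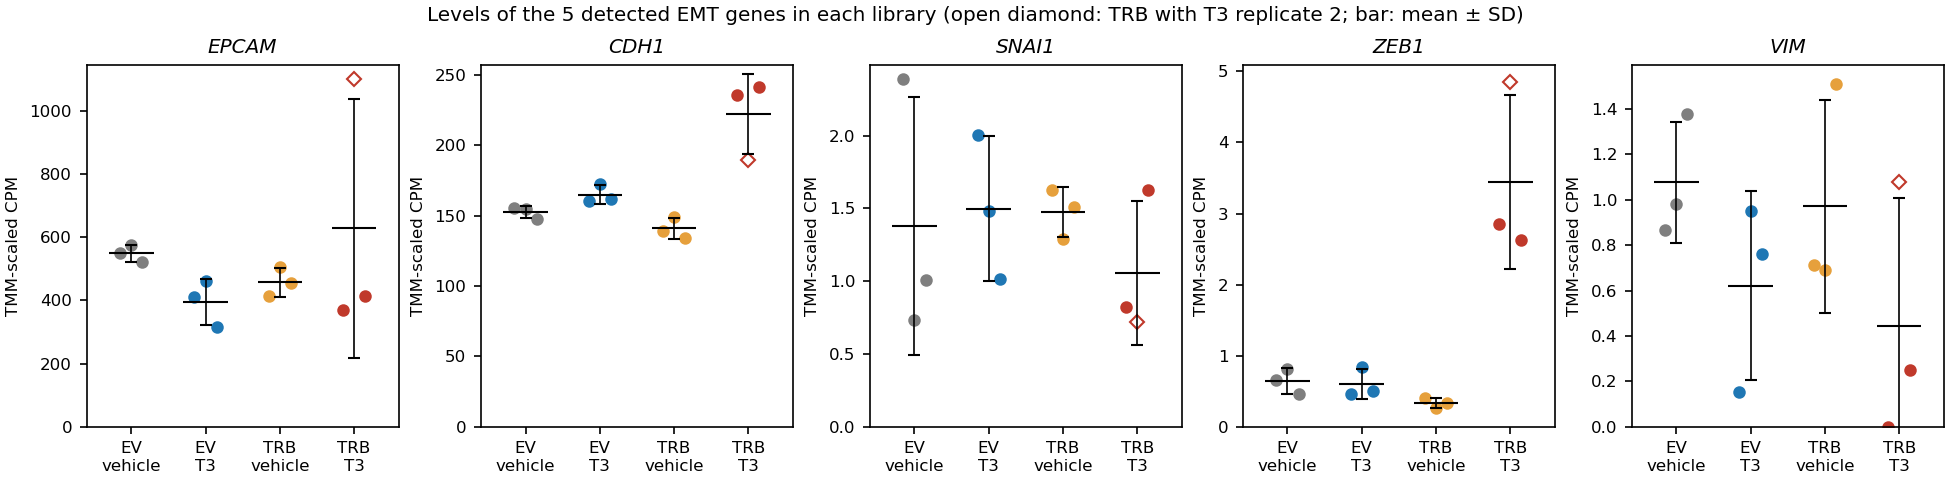
TMM-scaled CPM of the 5 detected genes in each library (y axis, from 0) by group (x axis); points are libraries, the line and bar are the mean and SD of 3, and the open diamond is TRB T3 replicate 2. CDH1 and ZEB1 are highest in the 3 TRB T3 libraries, and the diamond sits at 1100.4 CPM for EPCAM, far from the other 2 libraries of its group.

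For T3 in cells with the empty vector, edgeR called none of the 4 members tested with 12 libraries or the 5 with 11, where 0.229% and 7.33% of all genes were called. At an unadjusted p under 0.05 there were 0 members with 12 libraries and 1, EPCAM, with 11, and DESeq2 called 0. EPCAM stood at 549, 576 and 521 CPM in EV vehicle and at 411, 461 and 317 CPM in EV T3, so that the groups did not overlap. Its log2 change was -0.47 (SE 0.357, adjusted p = 0.935) with 12 libraries and -0.46 (SE 0.138, adjusted p = 0.0607) with 11. With 11 libraries it passed under GC offsets (adjusted p = 0.0067), without a count filter (adjusted p = 0.0038) and with the replicate number as a block (adjusted p = 0.0272). CDH1 stood at 156, 155 and 148 CPM in EV vehicle and at 160.4, 173 and 162 CPM in EV T3. Every EV T3 library was above every EV vehicle library, but the log2 change was only 0.11 (SE 0.141, adjusted p = 0.939). The share of all genes whose groups did not overlap is not given here, so such an order carries no weight by itself. ZEB1 had 3, 10 and 5 counts in EV vehicle and 3, 8 and 2 in EV T3, a pooled ratio of 1.01 (95% interval 0.453 to 2.17). VIM had 4, 12 and 15 counts in EV vehicle and 1, 9 and 3 in EV T3, a pooled ratio of 0.584 (0.281 to 1.15), and SNAI1 had 11, 9 and 11 counts against 13, 14 and 4.

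The receptor without added hormone, compared between TRB vehicle and EV vehicle, called none of the members by edgeR with 12 or 11 libraries, where 0.0208% and 0.0742% of all genes were called. No member reached an unadjusted p under 0.05 in either fit, and DESeq2 called 0. ZEB1 had the fitted change farthest from 0, at 0.652, 0.817 and 0.46 CPM in EV vehicle against 0.407, 0.258 and 0.336 in TRB vehicle. Its groups did not overlap, at 3 to 10 counts per library, and the log2 change was -0.94 (SE 0.453, unadjusted p = 0.0714, adjusted p = 1.0). EPCAM was lower in the TRB vehicle libraries without overlap as well, with a log2 change of -0.26 (SE 0.356, adjusted p = 1.0). CDH1 differed by -0.11 (SE 0.141) and SNAI1 by 0.27 (SE 0.441) on the log2 scale, both at an adjusted p of 1.0. VIM, tested with 11 libraries, differed by -0.16 (SE 0.49, adjusted p = 0.876). Here too, lack of overlap carries no weight by itself, since its share over all genes is not given.

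Under T3, TRB cells had more ZEB1 than EV cells, and, without TRB T3 replicate 2, more CDH1. This comparison shares its TRB T3 libraries with the T3 response of TRB cells and is not independent of it. With 12 libraries 1 of 4 members was called, where 6.68% of all genes were, and with 11 libraries 2 of 5, where 19.7% were. ZEB1 stood at 0.463, 0.845 and 0.506 CPM in EV T3, all below the TRB T3 libraries, and differed by 2.37 on the log2 scale (SE 0.377, adjusted p = 0.00405), or by 2.12 (SE 0.346, adjusted p = 0.00091) with 11 libraries. With the 2 compared groups fitted alone, ZEB1 did not pass (adjusted p = 0.103). CDH1 differed by 0.43 (SE 0.141, adjusted p = 0.0982) with 12 libraries and by 0.59 (SE 0.0952, adjusted p = 0.00078) with 11. With 12 libraries it passed by DESeq2 (adjusted p = 0.00274) and with GC offsets (adjusted p = 0.00154). EPCAM differed by 0.66 (SE 0.357, adjusted p = 0.257) with 12 libraries and by 0.04 (SE 0.154, adjusted p = 0.897) with 11.

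The interaction, the T3 response of TRB cells minus that of EV cells, called ZEB1 with 12 libraries, 1 of 4 members where 2.59% of all genes were called, and ZEB1 and CDH1 with 11, 2 of 5 where 15.2% were. For ZEB1 it was 3.31 on the log2 scale (SE 0.596, adjusted p = 0.0176) and 3.04 (SE 0.563, adjusted p = 0.00351). The call for ZEB1 was lost with 12 libraries when EV vehicle replicate 2, EV T3 replicate 1 or TRB vehicle replicate 2 or 3 was left out (adjusted p = 0.0848, 0.0556, 0.0576 and 0.0542). For CDH1 the interaction was 0.55 (SE 0.199, adjusted p = 0.188) with 12 libraries and 0.69 (SE 0.129, adjusted p = 0.00355) with 11, and with 12 it passed by DESeq2 (adjusted p = 0.0318) and with GC offsets (adjusted p = 0.00638). For VIM with 11 libraries it was -2.41 (SE 1.18, adjusted p = 0.193), so its fall in TRB cells was not shown to differ from the response of EV cells.

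**Figure D3:**
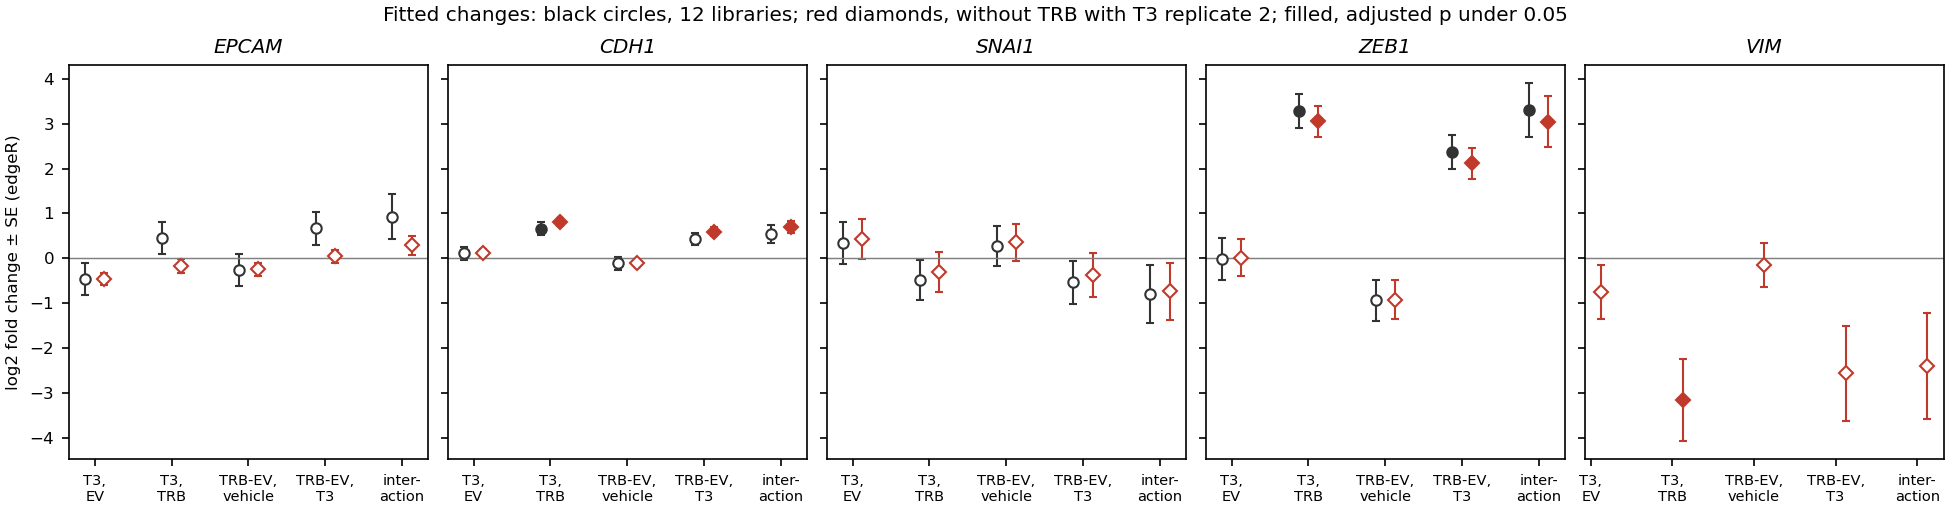
Log2 fold change with its SE (edgeR) of the 5 detected genes in the 5 comparisons; black circles are fits of 12 libraries, red diamonds fits without TRB T3 replicate 2, and filled symbols have an adjusted p under 0.05. ZEB1 is called in the 3 comparisons that hold TRB T3, while the EPCAM response of TRB cells crosses 0 between the 2 fits; VIM has diamonds only.

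Among 12 other transcription factors tied to EMT, 8 could be tested, and PRRX1 and GSC had 0 counts in every library. T3 in TRB cells raised FOXC1 alone with 12 libraries, a forkhead factor that stood at 3.15, 5.69 and 3.94 CPM in TRB vehicle and at 7.43, 9.89 and 9.24 CPM in TRB T3, without overlap. Its log2 change was 1.04 (SE 0.264, adjusted p = 0.0231), which did not pass without TRB vehicle replicate 1 or 3 (adjusted p = 0.0899 and 0.0812), without a count filter (adjusted p = 0.0677) or with the 2 compared groups fitted alone (adjusted p = 0.137). With 11 libraries 1 rose, again FOXC1, and 3 fell. These are 1 of 8 and 4 of 8, where 14.7% and 33.3% of all genes were called. The median change of the 8 was -0.22, beside 0.01 over all genes tested. In EV cells none was called with 12 libraries by edgeR (2 at an unadjusted p under 0.05, and 1 called by DESeq2), and with 11 libraries 2 of 8 fell, where 7.33% of all genes were called.

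Regulators that maintain the epithelial state moved both ways. Of 14 listed, 11 were tested with 12 libraries, and T3 in TRB cells raised EHF, GRHL1 and GRHL2 and lowered KLF4, 4 of 11 where 14.7% of all genes were called. EHF, an ETS factor of epithelia, stood at 241, 242 and 241 CPM in TRB vehicle and at 649, 1421 and 617 CPM in TRB T3. Its log2 change was 1.89 (SE 0.298, adjusted p = 0.00179) with 12 libraries and 1.44 (SE 0.133) with 11. GRHL1, a grainyhead factor that activates junction genes, stood at 7.52, 9.48 and 9.57 CPM against 23, 38.7 and 21.1, a log2 change of 1.63 (SE 0.248, adjusted p = 0.00139) with 12 libraries and 1.36 (SE 0.149) with 11. In both genes TRB T3 replicate 2 was the highest library of all, and both have 42.3% GC in their exons. KLF4, a zinc finger factor of epithelial differentiation, stood at 60.2, 63.7 and 54.7 CPM against 21.2, 24.5 and 25.7, a log2 change of -1.32 (SE 0.181, adjusted p = 0.0007). The median of the 11 was 0.02, beside 0.01 over all genes. Between TRB T3 and EV T3, GRHL1 was higher (0.95, SE 0.245, adjusted p = 0.0433) and KLF4 lower (-0.95, SE 0.181, adjusted p = 0.0106). With 11 libraries GRHL1 was again called higher and KLF4 lower, where 19.7% of all genes were called. The 12-library call of GRHL1 was lost when any of 8 single libraries was left out, at adjusted p up to 0.134. It was lost too when no count filter was used (adjusted p = 0.119) and with the 2 compared groups fitted alone (adjusted p = 0.374). The 12-library call of KLF4 was lost without EV T3 replicate 1 or 3 (adjusted p = 0.0614 and 0.0514) and with GC offsets (adjusted p = 0.308). It was also lost without a count filter (adjusted p = 0.0641) and with the 2 groups alone (adjusted p = 0.274). In EV cells none of the 11 was called by edgeR (1 at an unadjusted p under 0.05) or by DESeq2, and with 11 libraries 1 rose and 1 fell of 12, where 7.33% of all genes were called.

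All 20 epithelial adhesion and polarity genes were tested. With T3 in TRB cells 2 fell and the other 18 were not called with 12 libraries, and 2 rose and 3 fell with 11. These are 2 of 20 and 5 of 20, where 14.7% and 33.3% of all genes were called, too near these shares to set the list apart. OCLN, which encodes the tight junction protein occludin, stood at 39, 36.7 and 37.1 CPM in TRB vehicle and at 22.7, 22.7 and 24.5 in TRB T3. Its log2 change was -0.69 (SE 0.156, adjusted p = 0.013) with 12 libraries. That call was lost without TRB vehicle replicate 1 or 3 (adjusted p = 0.067 and 0.0545) and without a count filter (adjusted p = 0.131). It was lost too with the 2 compared groups fitted alone (adjusted p = 0.151). With 11 libraries OCLN was called lower as well. MUC1, a membrane mucin with 71.2% GC, stood at 6.61, 7.07 and 7.13 CPM against 2.33, 0.18 and 2.62, a log2 change of -1.92 (SE 0.523, adjusted p = 0.0325) with 12 libraries and -1.45 (SE 0.309, adjusted p = 0.00297) with 11. The 12-library call was lost when any of 8 single libraries was left out, at adjusted p up to 0.1, and with the 2 groups alone (adjusted p = 0.202). Between TRB T3 and EV T3, MUC1 differed by -2.04 (SE 0.535, adjusted p = 0.0463) with 12 libraries and -1.50 (SE 0.324, adjusted p = 0.00571) with 11. That 12-library call was lost on leaving out any single library other than TRB T3 replicate 2, at adjusted p up to 0.186, and with the 2 groups alone (adjusted p = 0.421). The median of the 20 for T3 in TRB cells was -0.21, beside 0.01 over all genes.

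Mesenchymal markers outside the set divided as well. Of 20 listed, 11 were tested with 12 libraries, and SPARC and CDH11 had 0 counts in every library. T3 in TRB cells raised TNC and FN1 and lowered AXL and TGFBI, with a median of -0.40 over the 11 beside 0.01 over all genes. With 11 libraries 3 of 12 rose and 5 fell. These are 4 of 11 and 8 of 12, where 14.7% and 33.3% of all genes were called. FN1 encodes fibronectin, TNC tenascin C, both of the extracellular matrix, AXL a receptor tyrosine kinase, and TGFBI a secreted protein induced by TGF-beta.

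FN1 stood at 10.2, 9.39 and 9.15 CPM in TRB vehicle and at 303, 147 and 275 CPM in TRB T3, and at 14.1, 16.5 and 13.6 in EV vehicle against 66.2, 72 and 73.9 in EV T3. It rose with T3 in both lines, without overlap. The log2 change was 4.66 (SE 0.279, adjusted p = 4.0e-06) in TRB cells and 2.26 (SE 0.253, adjusted p = 0.00367) in EV cells, where the call was lost without EV vehicle replicate 1 or 3 (adjusted p = 0.0579 and 0.0696). FN1 was the only one of the 11 called in EV cells with 12 libraries. With 11 libraries 2 rose there, FN1 and TNC, and 5 fell, AXL and TGFBI among them. These are 7 of 12 where 7.33% of all genes were called.

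TNC stood at 9.66, 7.07 and 8.64 CPM in TRB vehicle and at 696, 245 and 626 CPM in TRB T3. In EV cells it stood at 20.2, 20.5 and 23.1 CPM with vehicle and at 62, 60.4 and 85.3 CPM with T3. Its log2 change in TRB cells was 5.95 (SE 0.406, adjusted p = 9.0e-06). TRB T3 replicate 2 was the lowest of its group for both TNC and FN1 and still above every library of the other groups.

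AXL went the other way. It stood at 15.4, 11.9 and 13.7 CPM in TRB vehicle and at 2.18, 1.8 and 1.87 CPM in TRB T3, a log2 change of -2.79 (SE 0.201, adjusted p = 1.3e-05). In EV cells the log2 change of AXL with T3 was -0.73 with 12 libraries, not called, and -0.72 with 11, called. TGFBI stood at 24, 22.3 and 23.4 CPM against 6.6, 3.96 and 7.74, a log2 change of -1.91 (SE 0.255, adjusted p = 0.00059). For both genes TRB vehicle was the highest group of the 4 and TRB T3 the lowest, without overlap between any 2 groups for AXL. Between TRB T3 and EV T3 the log2 difference was 2.92 (SE 0.351, adjusted p = 0.00091) for TNC, 1.77 (SE 0.246, adjusted p = 0.00192) for FN1 and -1.42 (SE 0.205, adjusted p = 0.00247) for AXL. With 11 libraries TNC and FN1 were again called higher and AXL lower, where 19.7% of all genes were called. None of the 3 passed with these 2 groups fitted alone on 12 libraries (adjusted p = 0.0738, 0.11 and 0.13). That fit kept TRB T3 replicate 2 and called 32 of all genes tested.

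**Figure D4:**
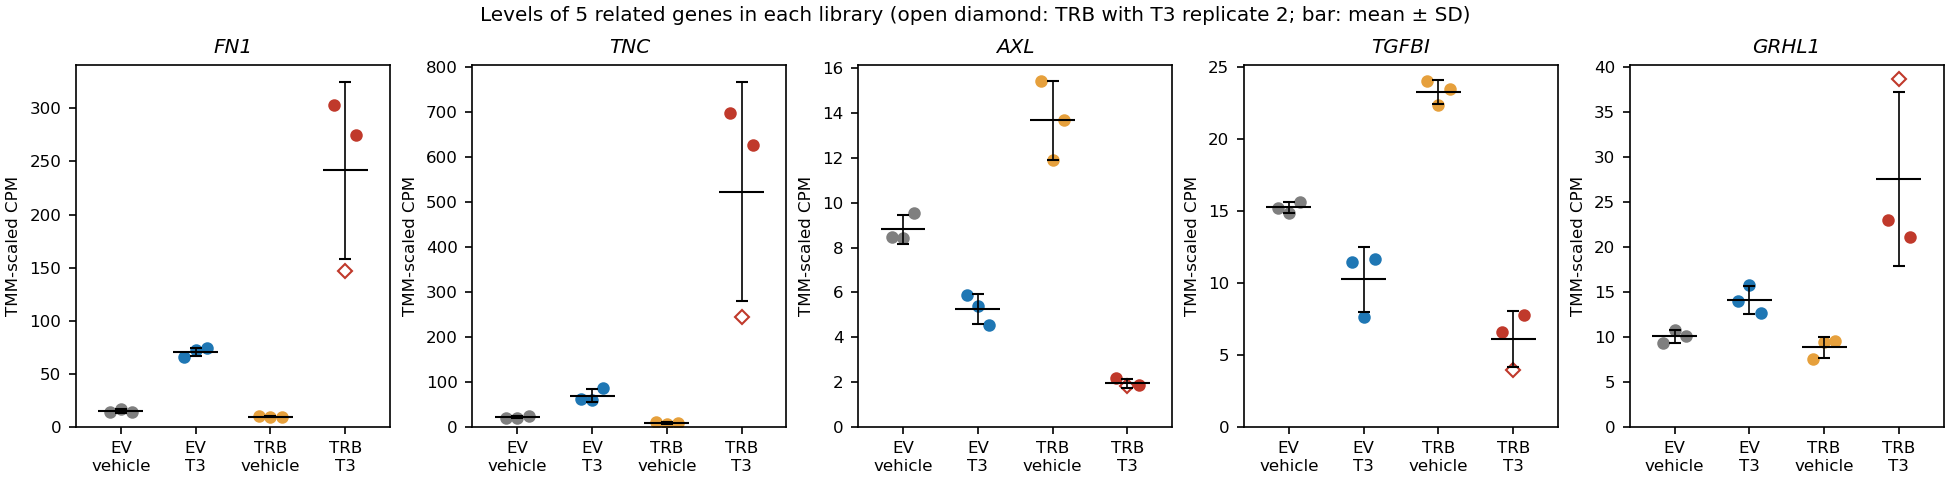
TMM-scaled CPM of FN1, TNC, AXL, TGFBI and GRHL1 in each library (y axis, from 0) by group (x axis); points are libraries, the line and bar are the mean and SD of 3, and the open diamond is TRB T3 replicate 2. FN1 and TNC are highest and AXL and TGFBI lowest with T3 in TRB cells, in all 3 libraries for FN1, TNC and AXL.

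**Figure D5:**
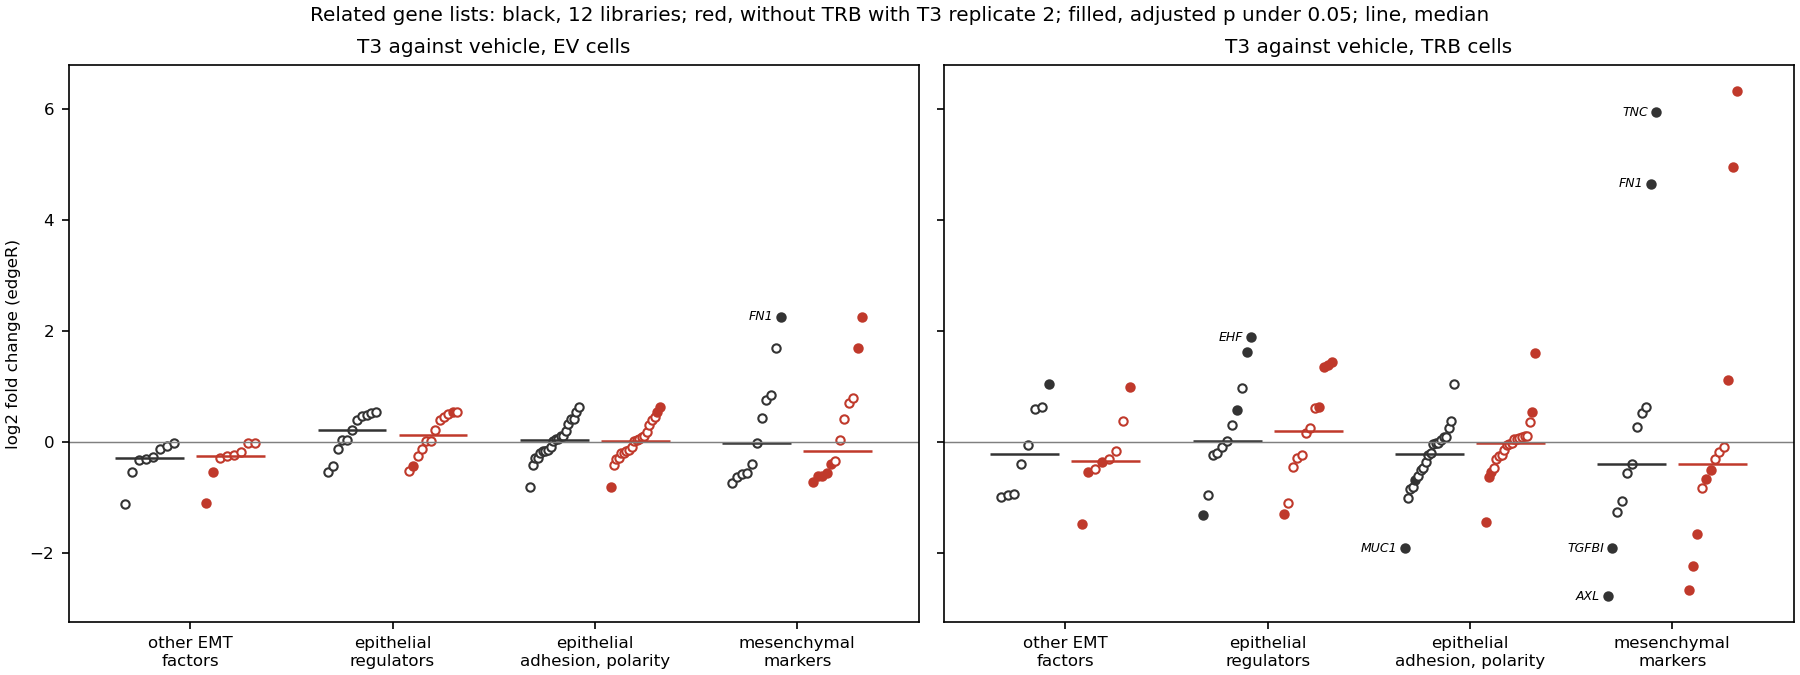
Log2 fold change with T3 (edgeR) of every tested gene of the 4 related lists, in EV cells (left) and TRB cells (right); black points are fits of 12 libraries, red points fits without TRB T3 replicate 2, filled points have an adjusted p under 0.05 and lines are medians. The medians lie between -0.40 and 0.22, and called genes lie on both sides of it within the mesenchymal and the epithelial regulator lists in TRB cells.

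Genes with a pattern most like that of ZEB1 or CDH1 were ranked by the root mean square difference of centred log2 CPM over 11 libraries, among 14430 genes. Nearest to ZEB1 were KIAA1370 (0.231) and LIMCH1 (0.248), and nearest to CDH1 were OSBPL2 (0.0642) and EPB41L1 (0.0704). These distances describe the same libraries and carry no test.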

How the data were processed

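Raw read counts per gene symbol were deposited by the authors for each of the 12 libraries, made with CASAVA 1.7, STAR 2.7, HTSeq 0.10 and build hg38 per the submitters' processing notes, which also name DESeq2. Whether strand was used is not given in the sources used here. Rows that name no gene, such as reads not aligned uniquely (19.0% to 92.0% of all counted reads), were left out of library sizes. The share not aligned uniquely was 77.7%, 69.6% and 92.0% in EV T3 and 66.3%, 33.1% and 37.9% in EV vehicle. The lowest share, 19.0%, was that of TRB T3 replicate 2. Whether this share affects the comparisons was not tested.

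Counts were filtered with filterByExpr (minimum count 10, total 15), scaled by TMM and tested with edgeR 4.0.16 (R 4.3.3, quasi-likelihood, 2-sided, 1 coefficient per group). The test was also run on simulated data with a spread near that of the 11 libraries (0.131) and no library shifted along GC content. That run does not check the fit of 12 libraries, whose spread was 0.329. CPM are counts per 1000000 of the effective library size. Alternatives were DESeq2 1.42.0, its size factors, other filters, GC offsets, a replicate block, the compared groups alone and leaving out each library. Replicates differed by more than sampling noise (chi-square per degree of freedom 2.81 to 210), so none was merged. The 10 members and the lists were chosen with earlier results of these data known. Besides the members, each list names per comparison at most the 2 most positive and 2 most negative changes called with 12 libraries. GRHL2 was named after its values were seen. So were AXL, TGFBI and TNC for T3 in EV cells, and AXL, FN1 and TNC between the vehicle groups. Promoter windows were matched by symbol for 5 of the 10 members.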

Additional observations from a re-analysis of the deposited data

Results flagged for a closer look

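For 5 genes of the set and the related lists the T3 response differed between TRB and EV cells by the interaction test with 12 libraries (edgeR, adjusted p under 0.05). They were 1 of 4 members, 1 of 11 epithelial regulators and 3 of 11 mesenchymal markers tested. None of the 8 other EMT factors or 20 adhesion and polarity genes was called. Of all genes tested, 2.59% were called with 12 libraries and 15.2% with 11. ZEB1 passed the count filter only through TRB T3. The difference was 3.31 for ZEB1, 4.25 for TNC and 2.40 for FN1 on the log2 scale, higher in TRB cells, and -2.05 for AXL and -1.20 for KLF4, lower in TRB cells. With 11 libraries it was 3.04, 4.65, 2.71, -1.96 and -1.17, all at an adjusted p under 0.05. Leaving out single libraries ended the call for ZEB1 in 4 cases (adjusted p up to 0.0848) and for KLF4 in 9 (adjusted p up to 0.116), and for none of TNC, FN1 and AXL. The KLF4 value was -0.58 (adjusted p = 0.362) with GC offsets and 12 libraries, and its call was also lost with the replicate block (adjusted p = 0.0521) and without a count filter (adjusted p = 0.178). The interaction also takes in the difference between the vehicle groups. TRB vehicle minus EV vehicle was -0.94 for ZEB1, -0.63 for FN1 and 0.63 for AXL on the log2 scale, none called with 12 libraries. With 11 libraries TNC was called lower in TRB vehicle, where 0.0742% of all genes were called.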

How the results depend on the processing

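Counts of calls moved widely between settings. Over all genes, leaving out 1 library gave 10 to 1087 calls for T3 in EV cells (33 with all), 1256 to 4938 for T3 in TRB cells (2128), 1 to 11 for TRB against EV in vehicle (3), 414 to 2918 for TRB against EV with T3 (964) and 136 to 2259 for the interaction (374); the highest was without TRB T3 replicate 2 each time. In that order DESeq2 called 172, 3101, 8, 1905 and 1022 genes, GC offsets 547, 5179, 7, 3501 and 2329, GC offsets with 11 libraries 2209, 6898, 130, 5134 and 4228, no count filter 19, 1816, 2, 666 and 238, and no filter with 11 libraries (chosen after seeing the data) 2397, 5226, 381, 3093 and 2814. The compared groups alone gave 200, 634, 1563 and 32.

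Members called ranged, when 1 library was left out, from 1 to 3 for T3 in TRB cells, from 1 to 2 for TRB against EV with T3 and from 0 to 2 for the interaction. For T3 in TRB cells, 1 member was called without a filter, with 10 counts in every library and with the compared groups alone. For TRB against EV with T3 these were 2 with DESeq2, GC offsets and GC offsets with 11 libraries, 3 without a filter on 11 libraries, and 0 with 10 counts in every library or the compared groups alone. For the interaction they were 2 with DESeq2, GC offsets (12 or 11 libraries) and no filter on 11 libraries, and 0 with 10 counts in every library, where ZEB1 is not tested. For T3 in EV cells EPCAM was the 1 member called with GC offsets or no filter on 11 libraries.

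Same-numbered replicates were not treated as pairs, since the labels name nothing they share and 12 of 18 such pairs, not all, correlated over 0.1 (range -0.19 to 0.728). That 10 of 12 libraries correlated best on average with their own number is a hint from the data, not from the design. The replicate block called 18, 2278, 2, 1068 and 395 genes, and with 11 libraries 1965, 5223, 12, 3223 and 3274. Members called with the block were the same in number with 12 libraries, and with 11 they were 1 for T3 in EV cells (EPCAM), 2 for TRB against EV with T3 and 2 for the interaction.

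Of 947 values for single genes under alternatives, 834 kept direction and call. The log2 change of EPCAM with T3 in TRB cells ranged from -0.18 to 0.72 when 1 library was left out, negative only without TRB T3 replicate 2, and reversed to -0.0938 with the replicate block, -0.26 with GC offsets and -0.19 without a filter, each with 11 libraries, and TRB against EV with T3 to -0.0170 with GC offsets and 11 libraries. ZEB1 with T3 in EV cells, at -0.01, moved between -0.37 and 0.31 when 1 library was left out, and was 0.0269 with DESeq2, 0.0263 with its size factors and 0.31 with GC offsets (12 or 11 libraries). SNAI1 between vectors in vehicle ranged from -0.0618 to 0.785, VIM there from -0.241 to 0.0632, and the VIM interaction from -2.41 to 0.0743. The causes were not tested. ZEB1 with T3 in TRB cells was called in all 21 alternatives where it was tested (log2 change 2.84 to 3.46). Depth limits VIM, ZEB1 and SNAI1, at 38 counts or fewer per library.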

Other observations

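Some abundant epithelial transcripts were read after their values were seen, beside EPCAM and CDH1. KRT8 and KRT18, the paired keratins of simple epithelia, stood at 386 to 2208 and 299.5 to 1932 CPM over the 12 libraries, with TRB T3 replicate 2 the lowest in both. VIL1, which encodes villin of brush borders, stood at 155 to 208 CPM, and KRT20, a keratin of gastrointestinal epithelium, at 57.5 to 109. CD14, on the leukocyte list, stood at 9.23, 0.18 and 9.74 CPM in TRB T3 and at 0.345 to 0.42 in TRB vehicle, and it was called higher with T3 in TRB cells with 12 and with 11 libraries (log2 change 4.04 and 4.60). The TRB T3 libraries other than replicate 2 reached the level of the count filter, and no TRB vehicle library did. The filter thus favoured a higher value with T3, and the call carries no weight by itself.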
